A study of Gorilla gorilla gorilla with 13 samples.

Results

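The 10 genes described here are Notch receptors (NOTCH1, NOTCH3), their ligands (DLL1, DLL3, DLL4, JAG1, JAG2), the Fringe enzymes that modify the receptors (LFNG, MFNG) and a target gene (HEY1). They were chosen by symbol, and all 10 were found among the 18137 genes of a count table made on the human genome build hg38. All 10 also passed the filter on low counts, as did 16804 genes in all. Their RNA was read in 13 bulk libraries of cells sorted from gorilla cerebral organoids, which are cultures grown from stem cells that form brain-like tissue. The organoids were collected at week 8, give or take 3 days, and every library came from the same induced pluripotent stem cell line, GC1. The sorted populations were neurons labelled BCL11B+ (N, 2 libraries), basal intermediate progenitors (bIP, 3 libraries), basal radial glia (bRG, 4 libraries) and apical radial glia (aRG, 4 libraries). No treatment or genetic change is named in the labels, and no sort marker besides BCL11B is given in the sources read.

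Notch signalling passes between touching cells. A Delta or Jagged ligand on one cell binds a Notch receptor on its neighbour, the receptor is cut by ADAM and gamma-secretase proteases, and the freed intracellular domain joins RBPJ and Mastermind proteins to switch on repressors of the HES and HEY families. In the developing cortex this pathway is known for keeping radial glia, the neural stem cells, from differentiating, while their differentiating daughters present ligand to them. Neurogenins, which are proneural factors, are known to raise the Delta genes. Radial glia are called apical where they are anchored at the ventricle and basal where they have left it, and basal intermediate progenitors are daughters committed to making neurons.

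Total counts per library lay between 5464721 and 12524938. Levels are given as CPM, counts scaled to library size by the TMM method, and compare a gene between libraries but not genes with each other. One neuron library carries a number that no neuron label has and is called the unnumbered one. Values of a population are listed in the order of the library numbers, with the unnumbered neuron library last. The summed level of the 5 intermediate progenitor markers examined was 29.7 to 39.8 CPM in N, 64.2 to 260.3 CPM in bIP, 352 to 572 CPM in bRG and 91.4 to 294 CPM in aRG, so the libraries labelled bIP were above N but below bRG. The 7 neuron markers summed to 5402 to 5584 CPM in N, 3433 to 3785 CPM in bIP, 431 to 663 CPM in bRG and 399.5 to 692 CPM in aRG. The summed level of 6 markers of Cajal-Retzius neurons was 201 to 238 CPM in N and 1329 to 3523 CPM in bIP, against at most 119 CPM in radial glia. The bRG label was not marked out from aRG by the sum of its 6 markers either (1193 to 2127 CPM in bRG, 1693 to 2272 in aRG). PTPRZ1 made up much of these sums, with means of 907 CPM in bRG and 1101 CPM in aRG. Of the 6, only TNC averaged higher in bRG (91.0 CPM) than in aRG (86.7 CPM). Library 3 of bRG stood apart from the rest, with the nuclear RNA MALAT1 taking 21.3% of the counts of a second table made on the gorilla build gorGor6, against 6.35% to 10.8% in the others. In such bulk libraries, fewer cells expressing a gene and less RNA per cell cannot be told apart.

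Both receptors were much lower in neurons and bIP than in either kind of radial glia. NOTCH1, the receptor most studied in cortical stem cells, measured 40.9 and 31.9 CPM in N, 36.4, 57.7 and 32.3 CPM in bIP, 296, 275, 246.5 and 406 CPM in bRG, and 274, 352, 333 and 245 CPM in aRG. The lowest radial glia library thus lay far above the highest bIP or N library, while bRG and aRG overlapped, apart from bRG library 4, which was the highest of all. A gene was called where its adjusted p from edgeR's quasi-likelihood test was under 0.05. In bIP, NOTCH1 fell by 2.86 on the log2 scale against bRG (SE 0.284, edgeR adjusted p = 2.46e-06) and by 2.84 against aRG (SE 0.283, edgeR adjusted p = 1.23e-06). In N it fell by 3.07 against bRG (SE 0.341, edgeR adjusted p = 6.07e-06) and by 3.05 against aRG (SE 0.340, edgeR adjusted p = 4.21e-06).

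NOTCH3, a receptor also known from the smooth muscle of brain vessels, gave the widest gap of all 10 genes in bIP and N against aRG. It measured 18.4 and 14.0 CPM in N, 16.7, 22.1 and 11.1 CPM in bIP, 240.1, 199, 175 and 206 CPM in bRG, and 255, 316, 222 and 281 CPM in aRG. The populations separated as for NOTCH1, and 3 of the 4 bRG libraries were below every aRG library. In bIP it fell by 3.62 against bRG (SE 0.284, edgeR adjusted p = 2.74e-07) and fell by 4.01 on the log2 scale against aRG (SE 0.289, edgeR adjusted p = 5.80e-08). In N it fell by 3.66 against bRG (SE 0.339, edgeR adjusted p = 1.37e-06) and fell by 4.05 against aRG (SE 0.347, edgeR adjusted p = 3.39e-07), which is a 16.6-fold lower level.

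**Figure D1:**
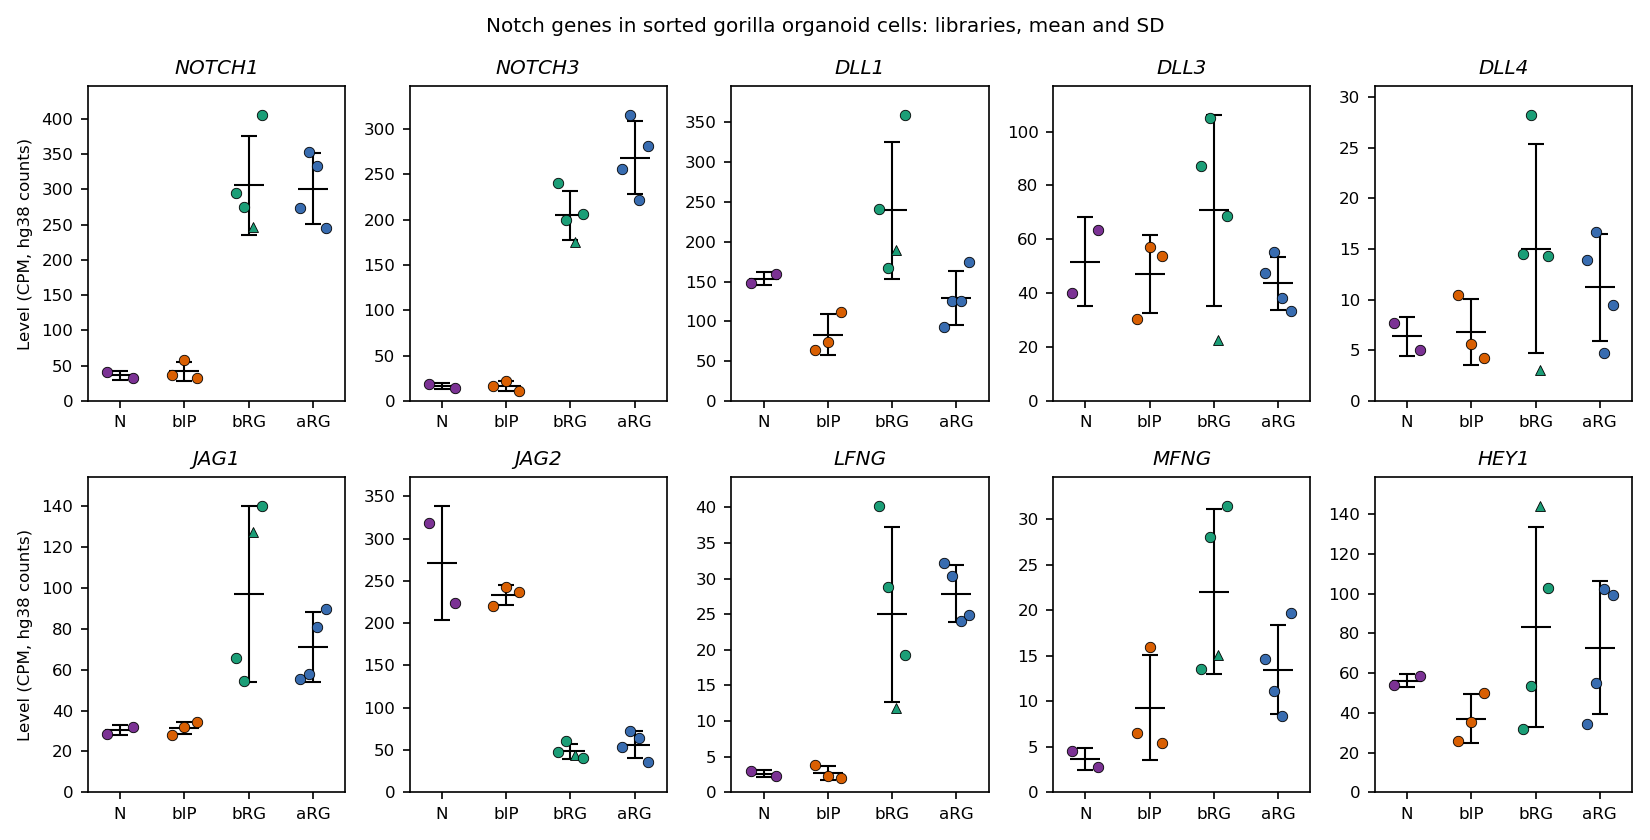
Level in CPM (linear axis, TMM-scaled hg38 counts) of each of the 10 Notch genes in N (2 libraries), bIP (3), bRG (4) and aRG (4). Points are libraries, the triangle is bRG library 3, and black bars give the mean and SD. NOTCH1, NOTCH3 and LFNG are low in N and bIP, JAG2 is high there, and HEY1 overlaps between radial glia and the others.

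The Jagged ligands JAG1 and JAG2 moved in opposite directions. JAG2, a ligand of the Serrate type, measured 319 and 223 CPM in N, 221, 243 and 237 CPM in bIP, 47.7, 61.2, 44.3 and 41.1 CPM in bRG, and 53.8, 72.4, 64.2 and 36.0 CPM in aRG. Every N and bIP library was above every radial glia library, and JAG2 was the only one of the 10 genes called higher in N or bIP. It rose 5.58-fold in N against bRG (2.48 on the log2 scale, SE 0.274, edgeR adjusted p = 5.77e-06) and 4.79-fold against aRG (2.26, SE 0.273, edgeR adjusted p = 9.74e-06). In bIP it rose 4.81-fold against bRG (2.27, SE 0.254, edgeR adjusted p = 7.39e-06) and 4.13-fold against aRG (2.04, SE 0.252, edgeR adjusted p = 1.21e-05).

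JAG1, the ligand mutated in Alagille syndrome, measured 28.7 and 32.2 CPM in N, 28.2, 31.7 and 34.2 CPM in bIP, 65.6, 54.4, 127 and 139.8 CPM in bRG, and 55.3, 57.9, 80.9 and 89.7 CPM in aRG. No N or bIP library reached the lowest radial glia library, and the radial glia libraries numbered 3 and 4 were above those numbered 1 and 2. In bIP, JAG1 fell by 1.62 against bRG (SE 0.331, edgeR adjusted p = 0.002) and by 1.18 on the log2 scale against aRG (SE 0.326, edgeR adjusted p = 0.0154). In N it fell by 1.67 against bRG (SE 0.387, edgeR adjusted p = 0.00482) and by 1.22 against aRG (SE 0.379, edgeR adjusted p = 0.0288). Of its 4 calls, the one in bIP against bRG stood under all 20 alternatives tried. The call in bIP against aRG ended without bIP library 1 or 2 (edgeR adjusted p = 0.0739 and 0.0567), and that in N against bRG ended without N library 1 or the unnumbered one (0.0671 and 0.0507). The call in N against aRG ended without either N library (0.192 without library 1, 0.141 without the unnumbered one), without aRG library 3 or 4 (0.0616 and 0.0503) and in the gorGor6 counts (0.0664).

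DLL1 was the Delta gene with the clearest differences, and its lowest level was in bIP. It is the main Delta ligand of dividing cortical progenitors and is known to be switched on by proneural factors. It measured 148 and 159 CPM in N, 63.8, 73.8 and 112 CPM in bIP, 241, 167, 189 and 359.8 CPM in bRG, and 92.3, 125, 126 and 174 CPM in aRG. Every bRG library was above every N and bIP library, and aRG overlapped with N, bIP and bRG. In bIP against bRG, DLL1 fell by 1.52 on the log2 scale (SE 0.305, edgeR adjusted p = 0.00175), which was its single call. The order of the means was bRG, N, aRG and bIP, and none of the neighbours in that order was called different (edgeR adjusted p = 0.203, 0.666 and 0.166).

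DLL3 and DLL4 were called in no comparison. DLL3 is an atypical Delta protein, known from mouse and cell culture work to stay mostly inside the cell and to dampen signalling. It measured 40.0 and 63.3 CPM in N, 30.5, 57.0 and 53.8 CPM in bIP, 87.2, 105, 22.5 and 68.6 CPM in bRG, and 47.5, 55.2, 38.4 and 33.3 CPM in aRG. Apart from bRG library 3, which was the lowest of all 13, the bRG libraries were the highest. DLL4, a ligand best known from growing blood vessels, measured 7.72 and 5.04 CPM in N, 10.5, 5.62 and 4.22 CPM in bIP, 14.5, 28.3, 3.07 and 14.3 CPM in bRG, and 13.9, 16.7, 4.69 and 9.48 CPM in aRG. bRG library 3 was again the lowest of the 13, on 26 counts. Without bRG library 3, DLL3 was called lower in bIP than in bRG (log2 fold change -0.88, edgeR adjusted p = 0.0445). Without it DLL4 was called lower than in bRG both in bIP (-1.51, edgeR adjusted p = 0.0395) and in N (-1.58, edgeR adjusted p = 0.0465).

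The Fringe gene LFNG followed the receptors. Fringe enzymes add a sugar to Notch receptors in the Golgi, which is known to shift their response between Delta and Jagged ligands. LFNG measured 2.94 and 2.24 CPM in N, 3.88, 2.33 and 2.07 CPM in bIP, 40.2, 28.8, 11.8 and 19.2 CPM in bRG, and 32.2, 30.4, 24.0 and 24.9 CPM in aRG. N and bIP libraries held only 22 to 26 counts each, far under the 100 to 259 counts of the radial glia libraries. In bIP, LFNG fell by 3.19 against bRG (SE 0.451, edgeR adjusted p = 7.21e-05) and by 3.35 on the log2 scale against aRG (SE 0.453, edgeR adjusted p = 3.22e-05). In N it fell by 3.27 against bRG (SE 0.536, edgeR adjusted p = 0.000264) and by 3.43 against aRG (SE 0.541, edgeR adjusted p = 0.000147).

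MFNG, its sister enzyme, was lowest in neurons. It measured 4.53 and 2.80 CPM in N, 6.57, 15.9 and 5.39 CPM in bIP, 13.5, 28.0, 15.1 and 31.4 CPM in bRG, and 14.6, 11.1, 8.33 and 19.7 CPM in aRG. The N libraries were below every other library, and bIP library 2 lay within the radial glia range. In N, MFNG fell by 2.59 against bRG (SE 0.598, edgeR adjusted p = 0.00464) and by 1.88 on the log2 scale against aRG (SE 0.579, edgeR adjusted p = 0.0281). Without the unnumbered N library both calls ended (edgeR adjusted p = 0.0917 and 0.247). The call against aRG also ended without N library 1 (0.0877) and without aRG library 4 (0.0633). In bIP against bRG its log2 fold change of -1.24 was not called (edgeR adjusted p = 0.0834), but it was called without bIP library 2 (-1.88, edgeR adjusted p = 0.0263), without bRG library 3 (-1.39, 0.0462) and by DESeq2 (adjusted p = 0.0323).

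HEY1, a repressor that Notch switches on, was called in no comparison. It measured 53.8 and 58.6 CPM in N, 25.8, 35.4 and 50.2 CPM in bIP, 31.8, 53.7, 144 and 103 CPM in bRG, and 34.3, 55.2, 102 and 99.1 CPM in aRG. The bRG and aRG libraries were spread widely, with libraries 1 and 2 at or near the bIP and N levels and libraries 3 and 4 above them. The log2 fold change was -1.16 in bIP against bRG (95% interval -2.12 to -0.20, edgeR adjusted p = 0.0956) and -0.38 in N against aRG (95% interval -1.44 to 0.69, edgeR adjusted p = 0.671). The bIP against bRG difference was called without bRG library 1 (-1.43, edgeR adjusted p = 0.0284) and by DESeq2 (adjusted p = 0.0452).

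**Figure D2:**
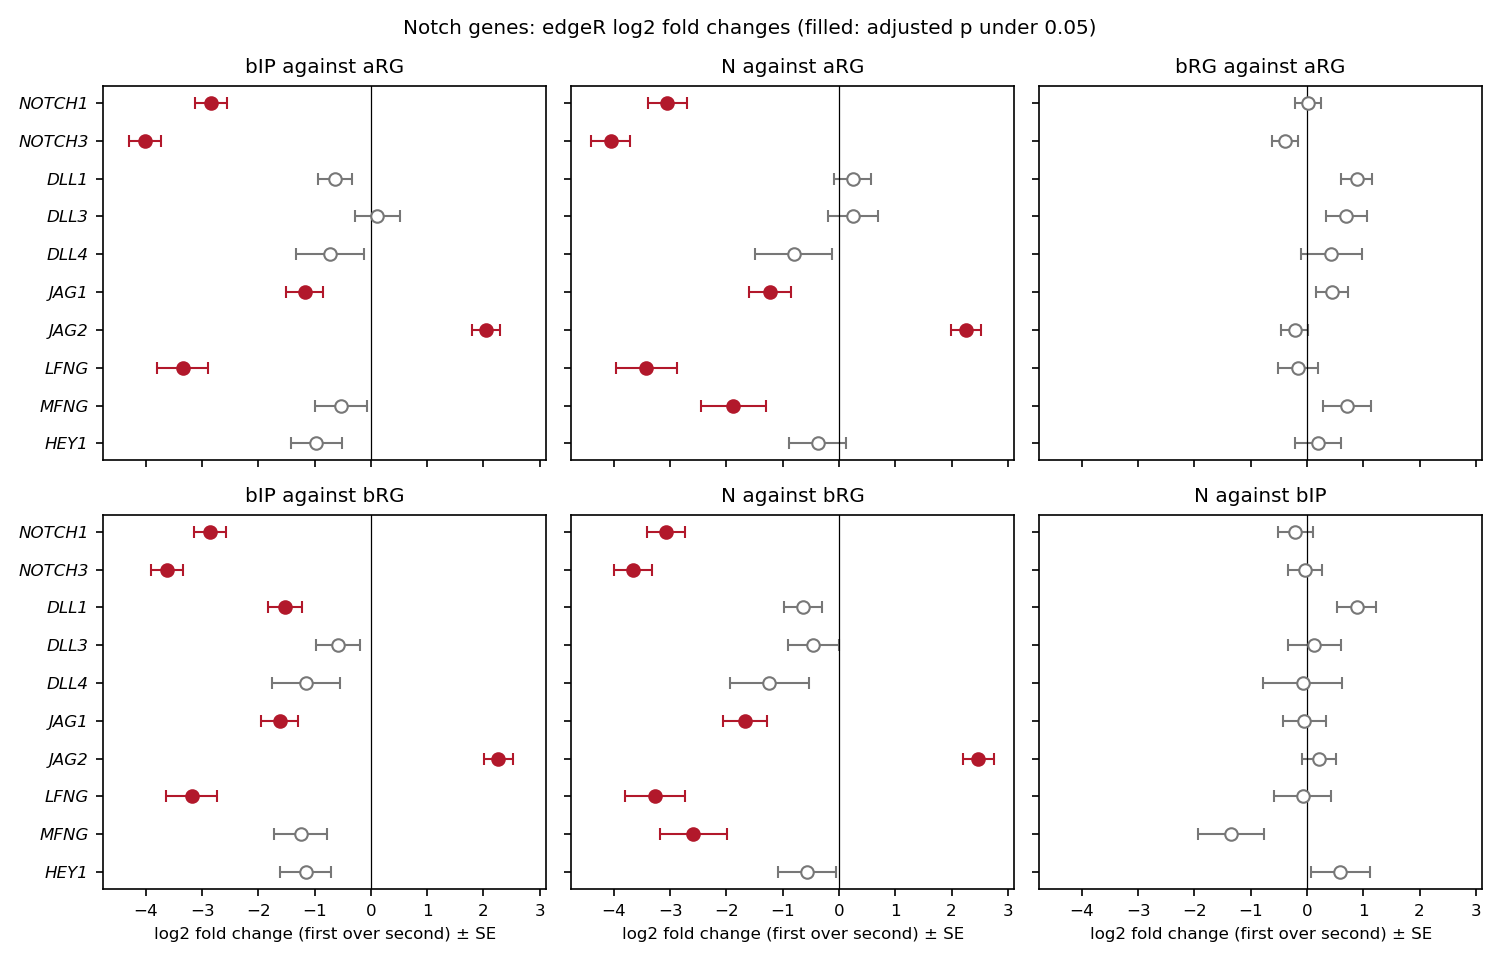
log2 fold change (first population over second) with its SE from edgeR for the 10 genes in the 6 comparisons. Filled red points have an adjusted p under 0.05, and open grey points do not. The 23 filled points all lie in the comparisons of bIP or N with radial glia, and bRG against aRG and N against bIP have none.

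Over the 6 comparisons 23 of 60 gene and comparison pairs were called. In bIP against aRG, 5 of the 10 genes were called, where 18.4% of all tested genes were; JAG2 was higher (8.47% of all tested genes were higher) and 4 were lower (9.98%). The same 5 genes had ranges that did not overlap, as had 32.4% of all tested genes. In bIP against bRG, 6 were called, where 16.7% of all tested genes were, with JAG2 higher (8.25%) and 5 lower (8.44%). These 6 were also the ones with ranges apart, which was so for 26.0% of all tested genes. In N against bRG, 6 were called, where 19.8% of all tested genes were, with JAG2 higher (10.6%) and 5 lower (9.13%). Ranges were apart for 7 of the 10 there, DLL1 being the uncalled one, and for 36.5% of all tested genes. In N against aRG, 6 were called, where again 19.8% of all tested genes were, with JAG2 higher (10.4%) and 5 lower (9.37%). Ranges were apart for the same 6 genes and for 44.1% of all tested genes.

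The median log2 fold change of the 10 genes was -0.85 in bIP against aRG, -1.38 in bIP against bRG, -1.45 in N against bRG and -1.01 in N against aRG. The median over all tested genes lay between -0.09 and -0.04 in these comparisons. The 4 comparisons share libraries, so they are not separate evidence.

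The comparison of bRG with aRG gave no call among the 10 genes by edgeR, DESeq2 or limma-voom, where edgeR called 1.26% of all tested genes (0.0298% higher and 1.23% lower). Ranges did not overlap for 0 of the 10 genes and for 5.52% of all tested genes. Only DLL1 had an unadjusted p under 0.05. DLL1 averaged 239 ± 86.2 CPM in bRG and 129.5 ± 33.7 CPM in aRG (SD, n = 4 each). Its log2 fold change was 0.89 (95% interval 0.31 to 1.46, edgeR adjusted p = 0.195). It was 0.62 without bRG library 4. DLL3 had a log2 fold change of 0.70 (95% interval -0.07 to 1.47, edgeR adjusted p = 0.589), which was 1.00 without bRG library 3. The receptors were close in the means, with NOTCH1 at 306 ± 69.8 CPM in bRG and 301 ± 49.8 CPM in aRG. The interval of the NOTCH1 log2 fold change ran from -0.47 to 0.52, and that of NOTCH3 from -0.86 to 0.08. In the same comparison all 7 mitosis markers examined fell, to a summed level of 624 to 867 CPM in bRG, against 2596 to 5037 CPM in aRG. They summed to only 57.8 to 80.5 CPM in bIP and 52.3 to 54.8 CPM in N. All 7 were called lower in bIP and in N against both kinds of radial glia.

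N against bIP gave no call among the 10 genes by edgeR, DESeq2 or limma-voom, where edgeR called 0.113% of all tested genes. DLL1 and MFNG had an unadjusted p under 0.05. DLL1 averaged 154 ± 7.85 CPM in N (SD, n = 2) and 83.3 ± 25.7 CPM in bIP (SD, n = 3), a log2 fold change of 0.88 (edgeR adjusted p = 0.640). MFNG averaged 3.67 ± 1.23 CPM in N and 9.29 ± 5.76 CPM in bIP, a log2 fold change of -1.35 (edgeR adjusted p = 0.721) that was -0.71 without bIP library 2. The ranges of DLL1, MFNG and HEY1 did not overlap between N and bIP, which was also so for 31.0% of all tested genes with these 5 libraries. Both receptors, JAG1, JAG2 and LFNG overlapped between N and bIP.

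Among the other genes of the pathway, 47 were listed by role, 46 were in the hg38 table and 45 were tested. In bRG against aRG and in N against bIP none was called. In bIP against aRG 4 were higher and 11 lower, where 8.47% and 9.98% of all tested genes were. In bIP against bRG 4 were higher and 6 lower (8.25% and 8.44% of all tested genes). In N against bRG 5 were higher and 8 lower (10.6% and 9.13%), and in N against aRG 5 were higher and 7 lower (10.4% and 9.37%). The counts of higher genes were near those shares of the 45 genes. Their median log2 fold changes were smaller than those of the 10 genes, between -0.47 and -0.13 in these comparisons.

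Of the 6 listed target genes besides HEY1, 4 were called lower in bIP against aRG (9.98% of all tested genes were), 2 in bIP against bRG (8.44%), 3 in N against bRG (9.13%) and 3 in N against aRG (9.37%). HES4 and HEYL were called in no comparison. Against aRG, HES4 had a log2 fold change of -2.26 in bIP (edgeR adjusted p = 0.0583) and -1.46 in N. Against bRG it was -0.84 in bIP and -0.04 in N. HES1, the repressor that holds radial glia in the progenitor state in mouse, measured 3.19 and 1.03 CPM in N, 7.17, 2.01 and 2.43 CPM in bIP, 123, 70.3, 85.0 and 51.8 CPM in bRG, and 108, 128, 100.1 and 75.1 CPM in aRG. It fell by 4.77 on the log2 scale in bIP against aRG (edgeR adjusted p = 2.13e-06) and by 5.32 in N against bRG (edgeR adjusted p = 1.13e-05). HES5, its partner in cortical progenitors, averaged 2.66 ± 1.51 CPM in N, 2.06 ± 0.616 CPM in bIP, 16.7 ± 4.89 CPM in bRG and 19.9 ± 3.10 CPM in aRG (SD, n = 2, 3, 4 and 4). HES5 fell in all comparisons of N or bIP with radial glia, by 2.62 to 3.28 on the log2 scale. HEY2 and NRARP, a feedback inhibitor, are named after their values were seen. HEY2 fell in bIP against aRG by 1.46 and in N by 2.21 against bRG and by 2.55 against aRG, and NRARP fell in bIP against aRG by 2.41. HEY1 was thus not called in the comparisons where HES1 and HES5 were, and the difference between these genes was not tested.

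**Figure D3:**
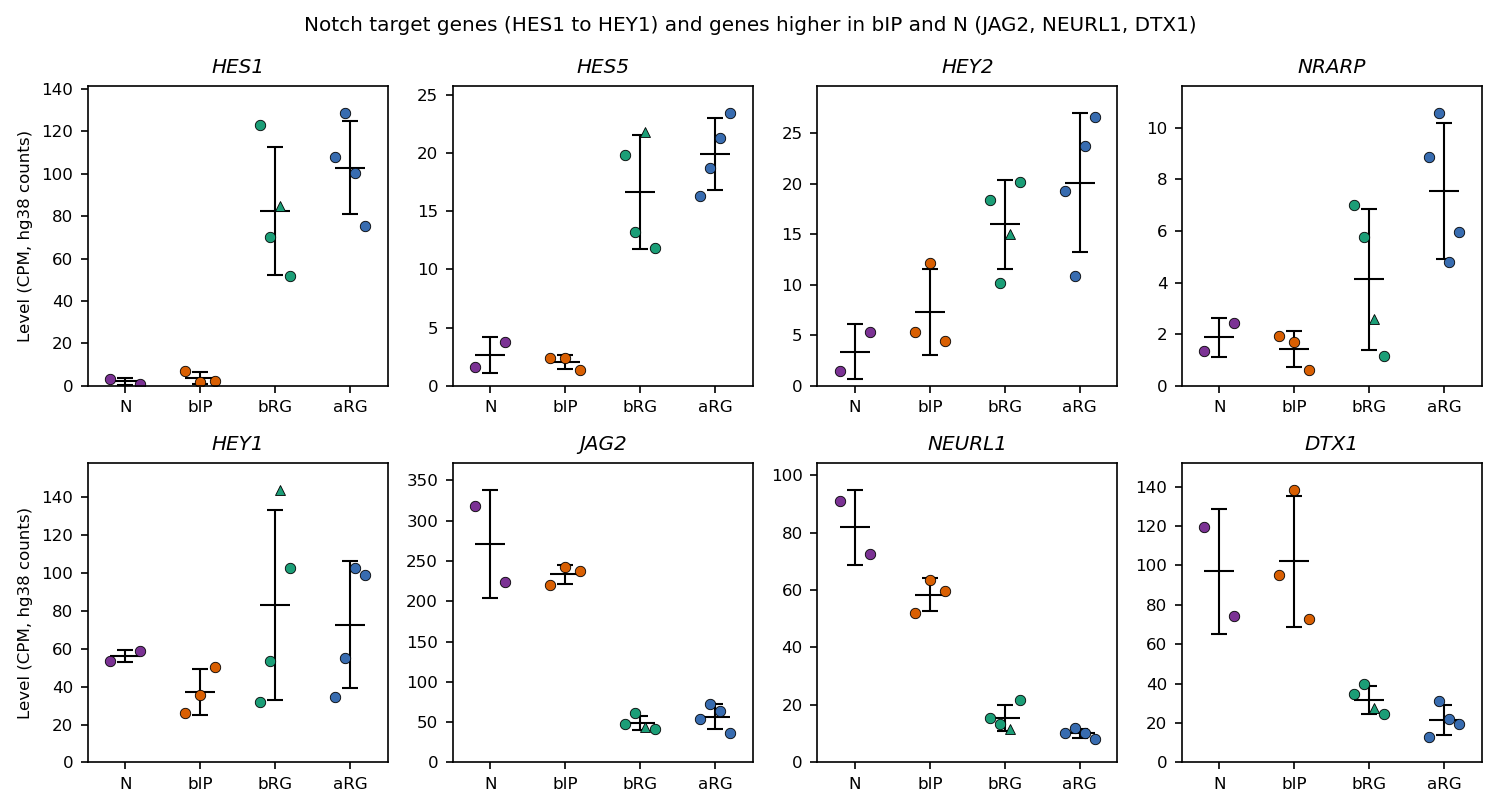
Level in CPM (linear axis) of Notch targets (HES1, HES5, HEY2, NRARP, HEY1) and of the genes JAG2, NEURL1 and DTX1 in N, bIP, bRG and aRG. Points are libraries, the triangle is bRG library 3, and bars give the mean and SD. HES1 averages 2.11 CPM in N, 3.87 in bIP, 82.5 in bRG and 103 in aRG, while NEURL1 and DTX1 are higher in N and bIP.

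Genes that act on ligands or receptors differed among themselves. Of the 4 ligand ubiquitin ligases, NEURL1 was called higher in bIP and N against both kinds of radial glia, NEURL1B only in N against bRG, and MIB1 and MIB2 in no comparison. Of the 8 attenuators, DTX1 was called higher in those 4 comparisons, DTX4 was called lower in bIP against aRG (log2 fold change -0.67, edgeR adjusted p = 0.0378), and HES6 was called lower in bIP and in N against bRG (-1.19 and -1.43, edgeR adjusted p = 0.0342 and 0.0277). FBXW7 was called higher in bIP against aRG (0.83, edgeR adjusted p = 0.0273) and NUMBL in N against aRG (1.31, edgeR adjusted p = 0.0423). DTX4, HES6, FBXW7 and NUMBL are named after their values were seen. NEURL1, a Neuralized ubiquitin ligase of the kind that makes cells take up Delta and Jagged proteins, averaged 81.8 ± 13.1 CPM in N, 58.4 ± 5.77 CPM in bIP, 15.5 ± 4.44 CPM in bRG and 10.1 ± 1.58 CPM in aRG. It rose by a log2 fold change of 2.53 in bIP against aRG (edgeR adjusted p = 4.26e-06) and of 3.01 in N against aRG (edgeR adjusted p = 1.63e-06). DTX1, a Deltex ubiquitin ligase that binds the receptor's intracellular part, averaged 97.0 ± 31.9 CPM in N, 102 ± 33.3 CPM in bIP, 31.7 ± 6.96 CPM in bRG and 21.4 ± 7.57 CPM in aRG. It rose in all comparisons of N or bIP with radial glia, though the call in N against bRG ended without N library 1 (edgeR adjusted p = 0.0784). CNTN1, a neuronal adhesion protein described as a non-canonical ligand, rose by 2.82 in bIP and 3.58 in N against aRG on the log2 scale.

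NOTCH2, a further receptor, averaged 46.9 ± 2.61 CPM in N, 55.9 ± 9.57 CPM in bIP, 315 ± 139.6 CPM in bRG and 400.0 ± 116 CPM in aRG. It fell by 2.49 on the log2 scale in bIP against bRG (edgeR adjusted p = 5.94e-05). NOTCH2 shares sequence with partial copies annotated in the human genome, so its counts are less certain. NOTCH4 was called in no comparison. NEUROG1, a neurogenin, fell by 3.52 on the log2 scale in bIP against bRG (edgeR adjusted p = 0.0051), with bRG libraries at 9.67 to 68.1 CPM. It was also called lower in bIP against aRG (-2.94, edgeR adjusted p = 0.0129). In N it was called lower against bRG (-3.49, edgeR adjusted p = 0.0153) and against aRG (-2.92, edgeR adjusted p = 0.0345). DLL1 was called only in bIP against bRG. The neurogenin NEUROG2 was called in no comparison (-0.92 in bIP against bRG, edgeR adjusted p = 0.0725). DLK1, a Delta-like protein, fell by 2.11 in bIP and fell by 3.29 in N against aRG. None of the 5 genes of the nuclear RBPJ and Mastermind group and none of the 3 listed sugar-modifying genes besides LFNG and MFNG was called in any comparison. Of the 8 genes of receptor cleavage, the gamma-secretase subunits APH1B and PSENEN fell by 1.16 and fell by 1.14 in bIP against aRG, and none was called in the other comparisons. Both are named after their values were seen.

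Markers of other cell types moved with some of these differences, and their part in them was not tested. All 7 radial glia markers fell together with the receptors and LFNG, to summed levels of 122 to 156 CPM in N and 131 to 157 CPM in bIP, against 2303 to 4004 CPM in bRG and 2876 to 3947 CPM in aRG. The 6 markers of endothelium, a cell type known for DLL4, NOTCH1 and JAG1, summed to 22.3 to 23.5 CPM in N, 20.4 to 29.4 CPM in bIP, 16.5 to 71.9 CPM in bRG and 49.8 to 113 CPM in aRG. None of these markers was at 0 in any population. Library 3 of bRG, lowest in DLL4, also had the lowest sum of them (16.5 CPM), but not the lowest level of each. In VWF, KDR and TEK every bRG library was above every N and bIP library. CDH5 went the other way, with every bRG library below every N and bIP library. PECAM1 and CLDN5 overlapped between bRG and the N and bIP libraries. The 5 choroid plexus markers summed to 74.1 to 299 CPM in N, 79.0 to 258 CPM in bIP, 199 to 1231 CPM in bRG and 1594 to 7768 CPM in aRG. The 5 mesenchyme markers summed to 24.4 to 68.9 CPM in N, 50.2 to 100.4 CPM in bIP, 49.0 to 78.6 CPM in bRG and 98.8 to 311 CPM in aRG. JAG2 was high in both bIP and N. The 6 Cajal-Retzius markers summed to 1329 to 3523 CPM in bIP and to 201 to 238 CPM in N. The 7 neuron markers summed to 3433 to 3785 CPM in bIP and to 5402 to 5584 CPM in N. How JAG2 relates to either set of markers was not tested.

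Within radial glia, HEY1, JAG1 and LFNG split by the number in the library labels. HEY1 was at 99.1 to 144 CPM in the 4 radial glia libraries numbered 3 and 4, against 31.8 to 55.2 CPM in the 4 numbered 1 and 2, a ratio of means of 2.56. JAG1 was at 80.9 to 139.8 CPM in those numbered 3 and 4, against 54.4 to 65.6 CPM in those numbered 1 and 2. LFNG went the other way, at 11.8 to 24.9 CPM against 28.8 to 40.2 CPM. Such a split with libraries 3 and 4 higher was seen for 7.64% of all tested genes, and with them lower for 4.74%. The labels do not say what the numbers stand for, and these libraries were also sequenced more deeply (9761818 to 10551184 counts in those numbered 3 and 4, 5464721 to 7153514 in those numbered 1 and 2), so number and depth cannot be told apart. bRG library 3 was the lowest bRG library for 5 of the 10 genes (NOTCH1, NOTCH3, DLL3, DLL4 and LFNG), as it was for 38.6% of all tested genes, and the highest for HEY1, as for 36.9%.

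**Figure D4:**
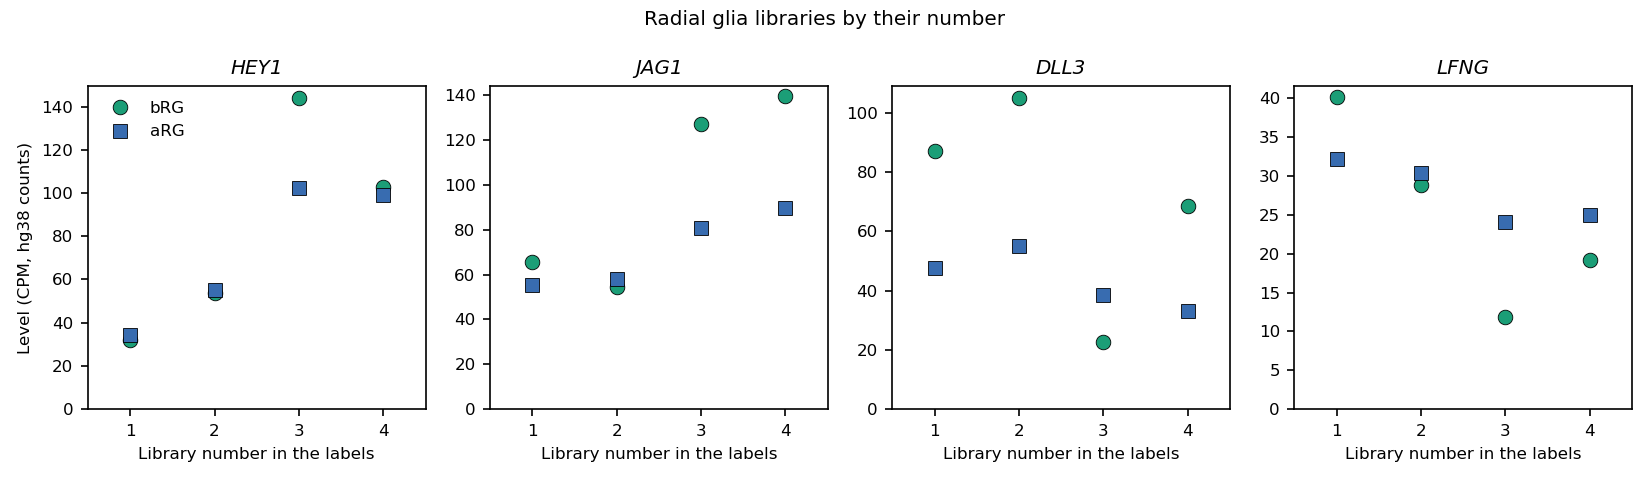
Level in CPM (linear axis) of HEY1, JAG1, DLL3 and LFNG in the bRG (circles) and aRG (squares) libraries, placed by the number in their labels. HEY1 lies between 31.8 and 55.2 CPM in libraries 1 and 2 and between 99.1 and 144 CPM in libraries 3 and 4 of both populations.

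The genes whose pattern over the 13 libraries was most like each Notch gene were found by the root-mean-square difference of log2 CPM, each gene centred on its own mean, among the 9190 genes whose mean log2 CPM reached 4. For NOTCH1 they were MYO10 (0.24), PLAT (0.28) and TMEM63A (0.29), where the median over all candidates was 1.55. For NOTCH3 they were HEG1 (0.27), MOXD1 (0.33) and CLSPN (0.35). For JAG2 they were FBXO44 (0.22), ASXL3 (0.23) and ABCB9 (0.23), for LFNG RHOJ (0.31), FZD2 (0.39) and PLEKHG1 (0.41), and for JAG1 CCND2 (0.25), PHLPP1 (0.25) and STXBP3 (0.26). MYO10, an unconventional myosin of filopodia, averaged 57.6 ± 9.24 CPM in N, 62.5 ± 20.9 CPM in bIP, 504 ± 18.5 CPM in bRG and 506 ± 68.4 CPM in aRG. HEY1 lay closest to UGDH (0.18), a sugar-nucleotide enzyme, which averaged 52.9 ± 11.4 CPM in N, 35.5 ± 6.83 CPM in bIP, 69.7 ± 37.6 CPM in bRG and 57.2 ± 25.0 CPM in aRG. For DLL1 (PHF13, ZSCAN12, TSPAN31), DLL3 (MKNK1, AGER, CTNS), DLL4 (ZBTB16, MTG2, CD101) and MFNG (PRAG1, ARSG, CHD7) the nearest genes were at 0.36 to 0.55. The median over all candidates was lower for them than for NOTCH1, at 0.79 for DLL1, 0.82 for DLL3, 1.08 for DLL4 and 1.12 for MFNG. For HEY1 and JAG1 it was 0.82 and 0.88. Within the set, NOTCH1, NOTCH3 and LFNG lay closest to each other, at 0.50 to 0.52. The next pairs were close behind, JAG1 with HEY1 at 0.54 and DLL1 with JAG1 at 0.56.

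All 10 genes also had rows in the gorGor6 table, with 1.28 (MFNG) to 1.90 (DLL3) counts for each hg38 count, where the median over 11020 genes with at least 1000 hg38 counts was 1.75. Of the 23 calls, 22 stood in the gorGor6 counts, the exception being JAG1 in N against aRG. MFNG differed most between the tables in N, at 1.55 and 1.13 CPM in the gorGor6 counts and 4.53 and 2.80 CPM in the hg38 counts. Its log2 fold change in N against bRG was -3.33 in the gorGor6 counts and -2.59 in the hg38 counts.

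**Figure D5:**
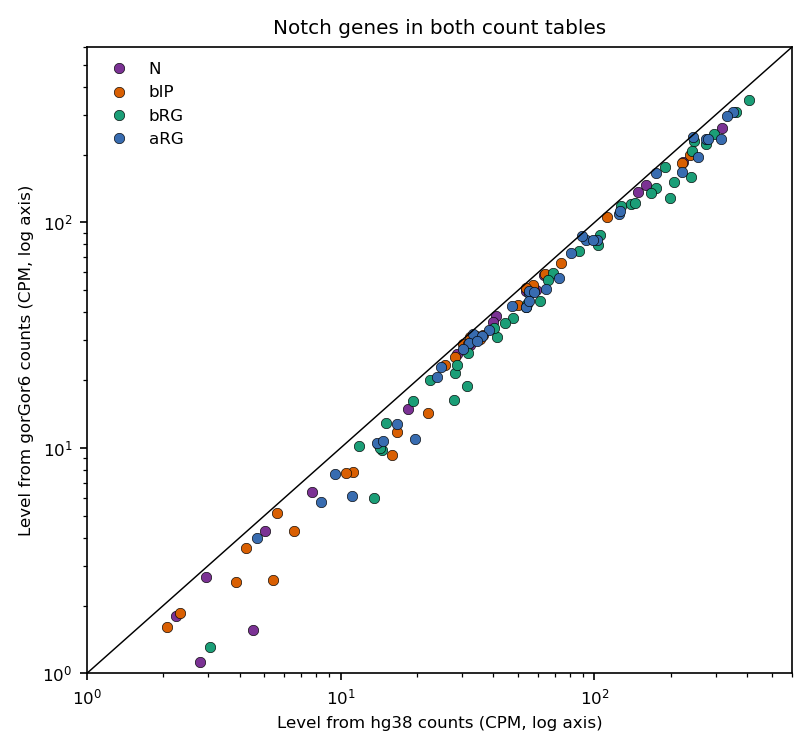
Level from gorGor6 counts against level from hg38 counts (CPM, both axes logarithmic) for the 10 genes in the 13 libraries, coloured by population. The line marks equal levels. Most points run parallel to it, and the points farthest under it are MFNG in N and in bRG library 1 and DLL4 in bRG library 3.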

How the data were processed

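The values the authors deposited are whole-number counts, not normalized, in 2 tables (hg38 and gorGor6) with a row per gene and a column per library. STAR and hg38 are named, per the submitters' processing notes, with no version; which counter, annotation and strand setting were used was not stated in what was read, so overlapping genes and close paralogs are uncertain. Libraries were Smart-seq2 from 10000 cells with 12 to 17 PCR cycles and no molecular identifiers, as the labels' protocols describe. No label ties libraries to separate cultures, so p-values measure only the spread between libraries, which may be technical. A row without a gene name (0.00351% to 0.00768% of gorGor6 counts) was left out. Libraries of a population differed by a chi-square of 11.1 to 98.0 per degree of freedom, more than sampling noise, and all were kept.

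A single model of the hg38 counts, with a term for each population and all 13 libraries, was fitted in edgeR 4.0.16 (R 4.3.3), with TMM scaling, filterByExpr (minimum count 10) and the quasi-likelihood test. Adjusted p-values are Benjamini-Hochberg over the 16804 tested genes of a comparison, called under 0.05. SEs were derived as the fold change over the root of F. Log2 CPM for likeness used a prior count of 2, and the 3 nearest genes were taken. For pathway genes the rule named up to 8 called genes per comparison with the smallest p. Alternatives were DESeq2 1.42.0, its size factors in edgeR, limma-voom 3.58.1 with library weights, no filter, the gorGor6 counts, the replicate number as a block, only the compared populations, and removal of each library. The test was checked on simulated data. In bRG against aRG it recovered 79.1% of 4-fold and 14.9% of 2-fold changes. In N against bIP it recovered 56.7% of 4-fold and 1.49% of 2-fold changes. A missing call in these comparisons therefore does not show equal levels. The genes and lists were chosen with earlier results of these data known. No genome sequence or matching annotation was used, so sequences and positions are not reported. The result of 1 pathway gene is not reported here.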

Additional observations from a re-analysis of the deposited data

How the results depend on the processing

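Of the 23 calls among the 10 genes, 18 stood under all 20 alternatives, and the other 5 (JAG1 in bIP against aRG, JAG1 and MFNG in N against bRG and in N against aRG) kept their direction in all. The replicate block uses a number that same-numbered libraries share; their deviations correlated at -0.0127 to 0.387, with at least 1 pair under 0.1 in every comparison of bIP or bRG with radial glia, so the numbers were not taken to pair libraries. With the replicate block, the calls of JAG1 (adjusted p = 0.0565 and 0.176) and MFNG (0.104 and 0.288) in N against bRG and against aRG ended, HEY1 was called in bIP against bRG (-0.81, 0.0355), and the unnumbered neuron library added nothing. Without single libraries, the number of the 10 genes called was 4 to 5 in bIP against aRG, 6 to 9 in bIP against bRG, 4 to 7 in N against bRG, 4 to 6 in N against aRG and 0 in the other comparisons. limma-voom called DLL1 and HEY1 lower in bIP against aRG (0.0189 and 0.0269) and DLL3 and MFNG lower in bIP against bRG (0.0181 and 0.024). Counts over all tested genes moved more. In bRG against aRG DESeq2 called 374, and single removals gave 131 to 240. In bIP against aRG limma-voom called 4813. In N against bIP the count was 169 by DESeq2, 103 by limma-voom, 1 with the replicate block, 48 with only these populations and 0 to 70 without single libraries. In N against bRG it was 1817 with the replicate block, 2027 with only these populations and 1698 to 4500 without single libraries. In N against aRG it was 1991 with the block and 1903 to 4470 without single libraries. Removals that leave 1 neuron library assume that it varies like the other populations. The cause of these shifts was not tested. LFNG in N and bIP (22 to 26 counts), MFNG in N (37 and 30) and NRARP in bIP (7 to 16) rest on few reads. So does DLL4 (26 to 254), and these counts cover counting error only.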

Other observations

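Of the copies of NOTCH2 annotated in the human genome, NOTCH2NLB was at 0 in all 13 hg38 columns, and NOTCH2NLA and NOTCH2NLC stayed at or under 3.07 CPM in every library. NOTCH2 itself was at 424 to 515 CPM in the radial glia libraries numbered 3 and 4, against 193 to 309 CPM in those numbered 1 and 2, a split like those of HEY1 and JAG1. DNER, a Delta-like neuronal protein, averaged most in bIP, at 101 ± 49.8 CPM in N, 152 ± 11.4 CPM in bIP, 64.8 ± 28.1 CPM in bRG and 93.2 ± 15.6 CPM in aRG, and it rose in bIP against bRG (log2 fold change 1.23, edgeR adjusted p = 0.00839). It is named after its values were seen.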
